A study of Mus musculus with 4 samples.

Results

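The RNAs described here are the 37 products of the mouse mitochondrial genome, taken as every row of the count table whose mapped symbol starts with mt-. They are 13 mRNAs, 2 rRNAs and 22 tRNAs among 52636 Ensembl rows. All 37 were present in the table. RNA came from whole pancreatic islets of Tspan7 knockout mice, written Tspan7y/- in the labels, and of wild-type control mice, with 2 libraries in each group. Tspan7 lies on the X chromosome and encodes a membrane protein of the tetraspanin family. The samples are labelled knockout, whereas the series text speaks of a knockdown. The labels used here give no age, no strain and no statement of how many animals contributed to a library, so p-values measure the spread between these libraries, which may be technical.

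Mitochondrial DNA is a small circular genome kept in many copies per cell. Its strands, called heavy and light, are transcribed as long precursors, and enzymes cut these at the tRNAs that punctuate them to free the mRNAs and rRNAs. The mRNAs encode core subunits of the respiratory chain (complexes I, III and IV) and of ATP synthase (complex V), and the rRNAs and tRNAs serve the mitochondrion's own ribosomes. In beta cells the respiratory chain couples glucose breakdown to ATP production, which closes potassium channels and triggers insulin release. In bulk RNA, fewer cells of a type and less RNA per cell cannot be told apart.

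Library totals were 9377220 and 7855665 counts in knockout replicates 1 and 2, and 8704271 and 9140275 counts in control replicates 1 and 2. The targeted gene matched the labels, with 3 and 2 Tspan7 counts in the knockout libraries against 1924 and 1795 in the control libraries. Levels are given as CPM, counts scaled to an equal library total. All 6 islet hormone markers were detected, and together they gave 20889 and 22700 CPM in knockout libraries and 23034 and 20783 CPM in control libraries. Markers of the enzyme-secreting acinar cells, all 8 with counts, varied more, with summed levels of 1216 and 5216 CPM in knockout and 2514 and 62.9 CPM in control libraries. The 8 immediate-early and heat-shock genes taken as signs of isolation stress summed to 783 and 2282 CPM in knockout and 1028 and 228 CPM in control libraries. Knockout replicate 2 was the highest library and control replicate 2 the lowest for both of these sums. Sums for macrophage, duct, endothelial and stellate markers were at most 361 CPM in knockout and 378 CPM in control libraries, and those for 4 long nuclear RNAs were 10365 and 10812 CPM in knockout and 8118 and 12507 CPM in control libraries. No marker of any of these lists was at 0 in every library.

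Several mitochondrial genes have copies inserted in nuclear chromosomes, and these sequences are shown because members and copies differ by so little. The first 75 bases of mt-Co2, which encodes subunit 2 of cytochrome c oxidase (complex IV), and of its annotated copy Gm28661 on chromosome 1 were identical. Those of mt-Nd3, a complex I subunit, and of its copy Gm28438 differed at 1 base, printed in capitals (T3C, counted from the first base of mt-Nd3). The sequences are transcripts of GENCODE M21, read 5′ to 3′.
mt-Co2: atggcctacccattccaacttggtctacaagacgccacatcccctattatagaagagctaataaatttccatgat
Gm28661: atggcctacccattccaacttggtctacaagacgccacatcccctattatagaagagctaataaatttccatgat
mt-Nd3: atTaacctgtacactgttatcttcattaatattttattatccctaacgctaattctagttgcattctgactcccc
Gm28438: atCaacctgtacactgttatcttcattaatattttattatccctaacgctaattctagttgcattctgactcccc

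A further 4 sequences are whole tRNAs, with the anticodon in capitals. They are shown because mt-Te (glutamate) had the most counts of all tRNAs, mt-Tk (lysine) the fewest, mt-Ts2 (serine) the smallest p between groups, and mt-Ta (alanine) the lowest knockout level relative to control after mt-Ts2 among the tRNAs tested.
mt-Te: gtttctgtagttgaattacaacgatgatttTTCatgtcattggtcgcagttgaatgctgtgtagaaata
mt-Tk: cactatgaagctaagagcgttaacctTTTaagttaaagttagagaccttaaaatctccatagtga
mt-Ts2: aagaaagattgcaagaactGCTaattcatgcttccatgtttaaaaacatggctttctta
mt-Ta: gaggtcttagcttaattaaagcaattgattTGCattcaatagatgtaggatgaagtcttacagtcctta

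The mRNAs fell into 7 that were abundant and 6 with at most 363 counts, in every library of both groups. mt-Nd5, a complex I subunit, had 82801 and 90720 counts in knockout libraries against 80011 and 89519 in control libraries. mt-Co1, the catalytic subunit of complex IV, had 72995 and 79583 counts in knockout and 74347 and 75859 in control libraries. mt-Cytb, the cytochrome b of complex III, had 42556 and 48169 counts in knockout and 43296 and 47451 in control libraries. These were the 3 mRNAs with the most counts, and mt-Nd5 and mt-Co1 were 2 of the 10 rows with the most counts in the whole table. The complex I mRNAs mt-Nd1, mt-Nd2, mt-Nd4 and mt-Nd6 had between 26711 and 39199 counts in each library.

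The 6 remaining mRNAs were at the other end. The complex IV subunit mt-Co2 had 26 and 32 counts in knockout libraries against 50 and 41 in control libraries. mt-Co3, also of complex IV, had 58 and 66 counts in knockout and 63 and 73 in control libraries. The ATP synthase subunit mt-Atp6 had 24 and 47 counts in knockout and 27 and 41 in control libraries, and its partner mt-Atp8 had 9 and 11 in knockout and 11 and 15 in control libraries. The complex I subunits mt-Nd3 and mt-Nd4l were intermediate. mt-Nd3 had 304 and 335 counts in knockout and 340 and 363 in control libraries, and mt-Nd4l had 185 and 233 in knockout and 197 and 250 in control libraries. On mitochondrial DNA these 6 follow one another as the mRNAs between mt-Co1 and mt-Nd4. Together they made up 0.189% and 0.201% of the mRNA counts in knockout libraries and 0.214% and 0.223% in control libraries.

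Levels between genes were compared per length, as CPM per kilobase of the annotated gene, without further scaling. The highest mRNA was mt-Nd6, the complex I subunit that is encoded on the light strand, with 6299 and 8448 CPM per kilobase in knockout and 6589 and 7201 in control libraries. mt-Co1 came next with 5038 and 6557 in knockout and 5528 and 5372 in control libraries. mt-Nd5, mt-Cytb, mt-Nd1 and mt-Nd2 followed, and mt-Nd4 was the lowest of the 7 with 2069 and 2811 in knockout and 2227 and 2309 in control libraries. The ranges over the 4 libraries overlapped between all neighbours from mt-Nd6 to mt-Nd2, although within each library the order was the same. Those of mt-Nd2 and mt-Nd4 did not overlap, nor did those of mt-Nd4 and mt-Nd3.

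Below that gap, mt-Nd3 averaged 108 ± 20.8 CPM per kilobase in knockout and 113 ± 1.33 in control libraries (SD, n = 2 each). The corresponding levels of mt-Nd4l were 83.2 ± 23.6 in knockout and 84.2 ± 11.2 in control libraries. mt-Co3 was lower again at 9.30 ± 2.0 in knockout and 9.71 ± 0.675 in control libraries. The lowest 3, mt-Atp8, mt-Co2 and mt-Atp6, lay between 3.76 and 8.79 in every library and took different places in different libraries. Per base, mt-Co1 was 1243 and 1101 times mt-Co2 in knockout libraries and 658 and 819 times in control libraries. Both proteins are subunits of the same enzyme complex.

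**Figure D1:**
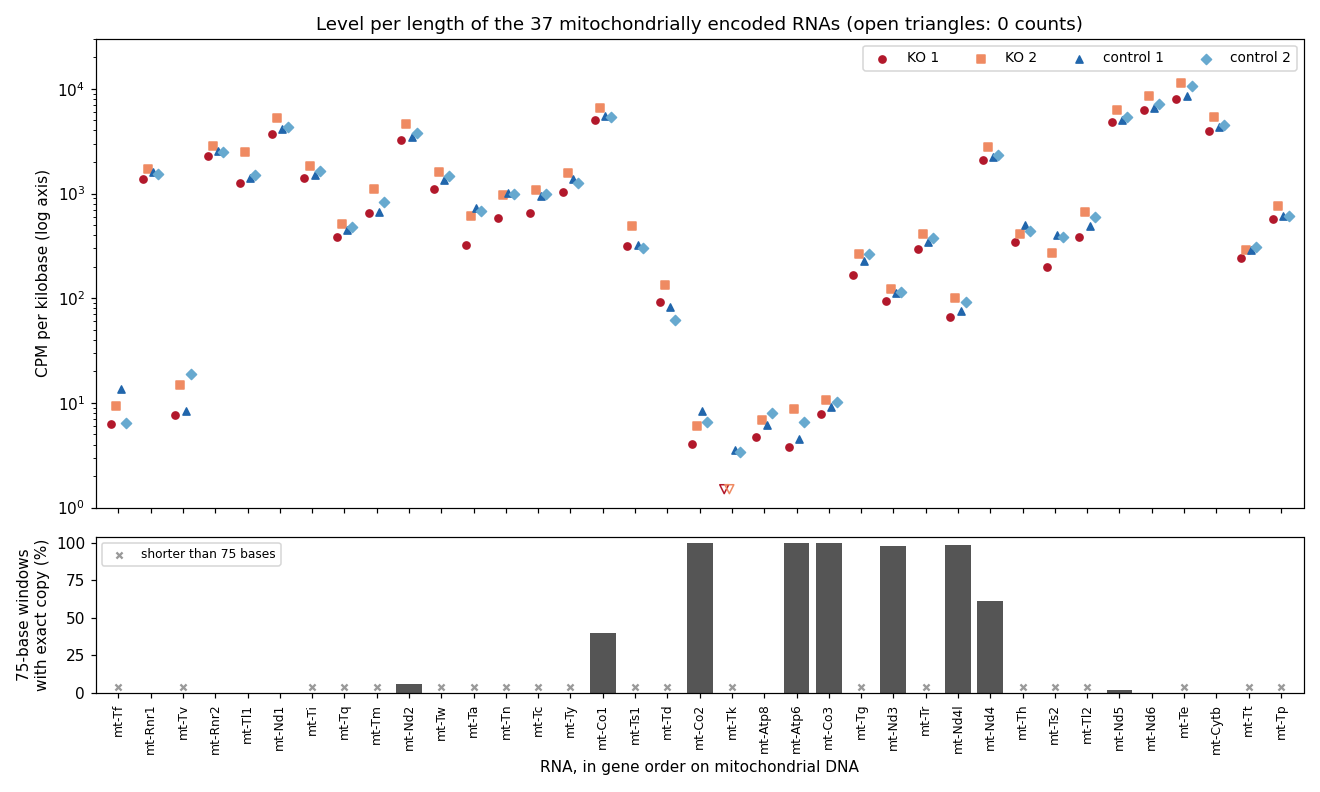
Upper plot: CPM per kilobase (log axis) of each of the 37 RNAs in each library, in gene order on mitochondrial DNA, with knockout (KO) libraries in red tones and control libraries in blue tones. Open triangles mark mt-Tk with 0 counts in both knockout libraries. Lower plot: share of each RNA's 75-base windows found exactly in another annotated transcript, with crosses for RNAs shorter than 75 bases. The mRNAs from mt-Co2 to mt-Nd4l lie below 123 CPM per kilobase in all libraries, and 5 of those 6 have more than 97% of their windows copied.

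Sequence shared with nuclear copies was counted as the share of a member's 75-base windows found exactly in any other GENCODE M21 transcript on the same strand. It was 99.5% for mt-Co2, 99.5% for mt-Atp6, 99.9% for mt-Co3, 97.8% for mt-Nd3 and 98.7% for mt-Nd4l. Among the abundant mRNAs it was 61.5% for mt-Nd4, the lowest of them per length, 39.8% for mt-Co1, 5.71% for mt-Nd2 and 1.66% for mt-Nd5. No 75-base window of mt-Nd1, mt-Nd6, mt-Cytb, mt-Atp8 or the rRNAs was found in another transcript. Copies that are not annotated were not searched, for mt-Atp8 or any other member. Windows of 50 and 100 bases gave at least 97.6% for the 5 most copied mRNAs. With 50 bases the share was 1.04% for mt-Rnr2, 7.61% for mt-Nd5, 8.19% for mt-Nd2, 51.1% for mt-Co1 and 62.2% for mt-Nd4.

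The copies of 7 members, mt-Co1, mt-Co2, mt-Atp6, mt-Co3, mt-Nd3, mt-Nd4l and mt-Nd4, are 7 consecutive annotated pseudogenes on chromosome 1 in that reference, all on the minus strand and, read along it, in the order of their members on mitochondrial DNA. Compared without gaps, Gm28661 matched mt-Co2 at 681 of 681 bases, Gm10925 matched mt-Atp6 at 678 of 678, and Gm28437 matched mt-Co3 at 783 of 783. Gm10222 matched mt-Nd4l at 294 of 294 bases and Gm28439 matched mt-Nd4 at 876 of 876. Gm28438 matched mt-Nd3 at 344 of 345 and Gm29216 matched mt-Co1 at 486 of 492 bases. No gene is annotated between Gm10925 and Gm28661, the copies of mt-Atp6 and mt-Co2, where mt-Atp8 and mt-Tk lie on mitochondrial DNA.

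Counts of the copies were low too. Gm28661 had 31 and 26 counts in knockout and 25 and 24 in control libraries, beside its member mt-Co2 at 26 to 50. Gm10925 had 89 and 72 counts in knockout and 87 and 78 in control libraries, above its member mt-Atp6 in each library. Gm28437 had 88 and 109 counts in knockout and 69 and 75 in control libraries, again above mt-Co3 in each library. Gm13340, a separate copy that matched mt-Co1 at 1508 of 1545 bases, had 69 and 84 counts in knockout and 75 and 86 in control libraries. Gm29216, the chromosome 1 copy of mt-Co1, had 45 and 52 counts in knockout and 73 and 59 in control libraries. Reads of a member and of an identical copy cannot be told apart by sequence, and how reads that map to several places were counted is not given in the sources used here. The counts of the copied mRNAs are therefore uncertain, and the part of the copies in the low counts was not tested.

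**Figure D2:**
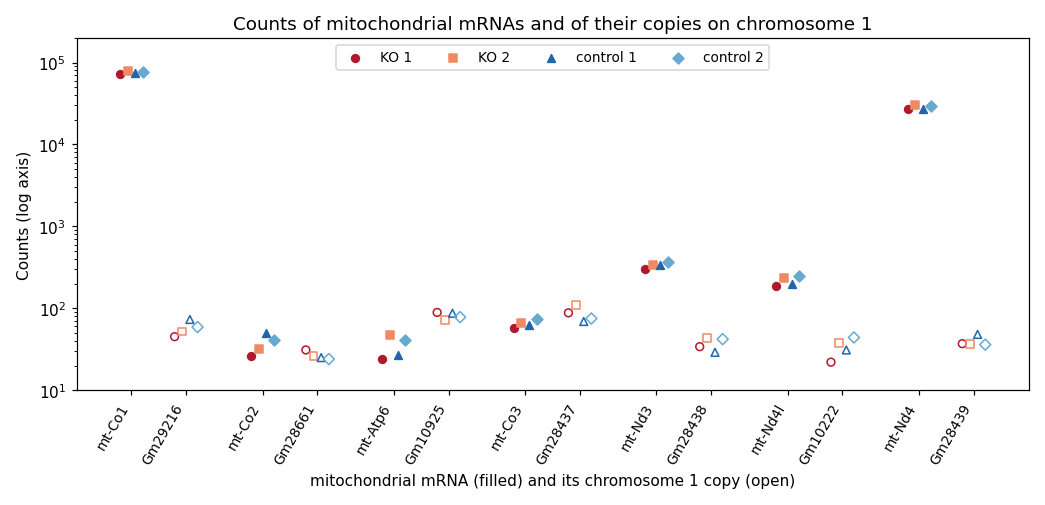
Counts (log axis) of 7 mitochondrial mRNAs (filled symbols) and of their copies on chromosome 1 (open symbols) in the 2 knockout (KO) and 2 control libraries. mt-Co2, mt-Atp6 and mt-Co3 have between 24 and 73 counts, of the same order as their copies, while mt-Co1 and mt-Nd4 have at least 26711.

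mt-Nd6 also stood apart in base composition. It is the only mRNA of the light strand, and its transcript held 28.1% G and 43.7% T, whereas the 12 other mRNAs held 5.88% to 16.1% G and 27.4% to 32.8% T. Its annotated gene overlaps mt-Nd5, on the opposite strand, by 14 bases. The library kit was directional, but whether strand was used in counting is not given in the sources used here. Reads from the opposite strand therefore cannot be told apart over any member of either strand, including mt-Nd6, mt-Nd5 and the 8 light-strand tRNAs such as mt-Te. The ratio of mt-Nd6 to mt-Nd5 per base was 1.30 and 1.33 in knockout libraries and 1.31 and 1.34 in control libraries. The 9 members of the light strand, mt-Nd6 and 8 tRNAs, took 10.1% and 10.3% of member counts in knockout libraries and 9.99% and 10.6% in control libraries.

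The rRNAs were less abundant per length than the leading mRNAs. mt-Rnr2, the large ribosomal RNA, had 33965 and 35366 counts in knockout and 34937 and 36092 in control libraries. mt-Rnr1, the small ribosomal RNA, had 12376 and 12988 counts in knockout and 13276 and 13302 in control libraries. Per base, mt-Rnr2 was 1.66 and 1.64 times mt-Rnr1 in knockout libraries and 1.59 and 1.64 times in control libraries. Relative to mt-Nd1, the next mRNA on the genome, mt-Rnr2 stood at 0.618 and 0.546 in knockout and 0.609 and 0.582 in control libraries. Whether rRNA was depleted or poly(A) RNA was selected before the libraries were made is not given in the sources used here.

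The tRNAs differed from each other by more than the mRNAs of the abundant group did. mt-Te had 5218 and 6106 counts in knockout libraries against 5153 and 6668 in control libraries. It lies next to mt-Nd6 on the light strand, and per base it was 1.28 and 1.33 times mt-Nd6 in knockout libraries and 1.30 and 1.47 times in control libraries. mt-Tl1 (leucine) followed with 889 and 1453 counts in knockout and 927 and 1039 in control libraries. At the other end mt-Tk had 0 and 0 counts in knockout and 2 and 2 in control libraries. A count of 0 allows up to 3 counts, or 0.320 and 0.382 CPM in these libraries, so no difference in mt-Tk was detectable at this depth. mt-Tf (phenylalanine) and mt-Tv (valine), on either side of mt-Rnr1, had between 4 and 12 counts per library.

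The remaining 17 tRNAs had between 40 and 1024 counts in each library. The annotated tRNAs are 59 to 75 bases long, so a sequenced fragment can reach into a neighbouring gene, and how such fragments were assigned is not given in the sources used here. Among the 4 light-strand tRNAs that lie in a row between mt-Nd2 and mt-Co1, mt-Ta had 209 and 328 counts in knockout and 436 and 433 in control libraries. mt-Tn (asparagine) had 389 and 541 in knockout and 623 and 642 in control libraries. For mt-Tc (cysteine) the counts were 403 and 556 in knockout and 548 and 595 in control libraries, and for mt-Ty (tyrosine) 654 and 827 in knockout and 794 and 765 in control libraries.

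The share of each library taken by the 37 members did not separate the groups. It was 4.04% and 5.39% in knockout libraries and 4.39% and 4.54% in control libraries, or 4.72% ± 0.953 against 4.46% ± 0.107 (SD, n = 2 each). Both control libraries lay between the knockout libraries. The 95% Wilson intervals, which cover counting error only, ran from 4.03% to 4.06% in knockout replicate 1 and from 5.38% to 5.41% in knockout replicate 2. The difference of 0.254 percentage points had an exact permutation p of 1.0, two-sided, adjusted 1.0 over 2 such tests. With 2 libraries against 2, the smallest p possible is 0.333. Without knockout replicate 2 the difference was -0.419 points, and without knockout replicate 1 it was 0.928.

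The mRNAs took 3.43% and 4.59% of counts in knockout and 3.69% and 3.84% in control libraries, and the tRNAs 0.125% and 0.185% in knockout and 0.147% and 0.164% in control libraries. The rRNAs took 0.494% and 0.616% in knockout and 0.554% and 0.540% in control libraries. As a share of member counts, rRNA was 12.2% and 11.4% in knockout libraries and 12.6% and 11.9% in control libraries. The difference in means was -0.446 percentage points, with an exact permutation p of 0.667, two-sided, adjusted 1.0. In each of these shares the groups overlapped.

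**Figure D3:**
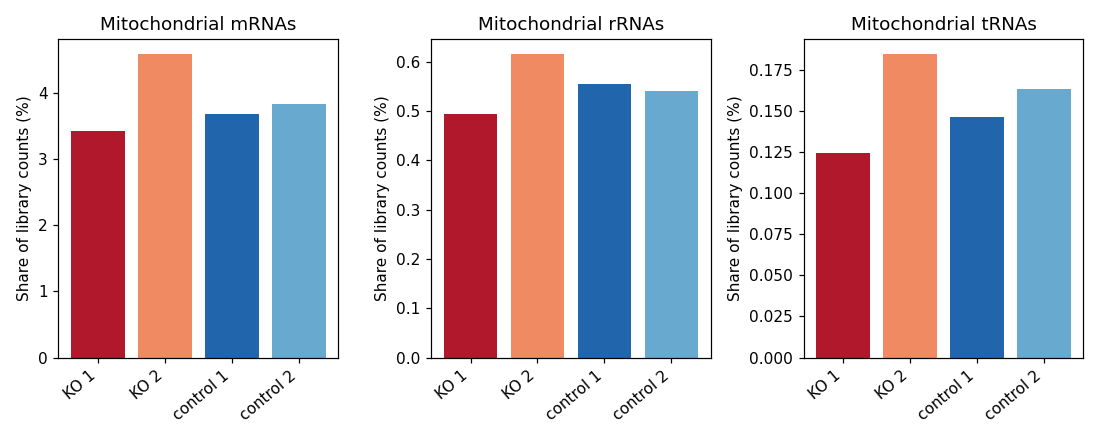
Share of library counts (%) from mitochondrial mRNAs, rRNAs and tRNAs in the 2 knockout (KO) and 2 control libraries, 1 bar per library, each axis starting at 0. Knockout replicate 2 is the highest and knockout replicate 1 the lowest library in all 3 plots, at 4.59% and 3.43% for the mRNAs.

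The knockout libraries differed from each other by more than the control libraries did, for nearly every member. Scaled CPM are CPM divided by each library's TMM factor (trimmed mean of M-values). mt-Nd1 had 3453 and 5196 scaled CPM in knockout and 4108 and 3987 in control libraries. mt-Cytb had 4420 and 6385 in knockout and 5123 and 5043 in control libraries. Of the 34 members tested, 28 were highest in knockout replicate 2 and 32 were lowest in knockout replicate 1. In unscaled CPM, the 7 abundant mRNAs were 1.30 to 1.41 times higher in knockout replicate 2 than in knockout replicate 1, and the rRNAs 1.24 to 1.25 times. The same ratio of control replicate 2 to control replicate 1 was 0.972 to 1.10 for the mRNAs and 0.954 to 0.984 for the rRNAs. Acinar and stress genes were also highest in knockout replicate 2, but were lowest in control replicate 2 and not in knockout replicate 1. Their part in these levels was not tested.

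**Figure D4:**
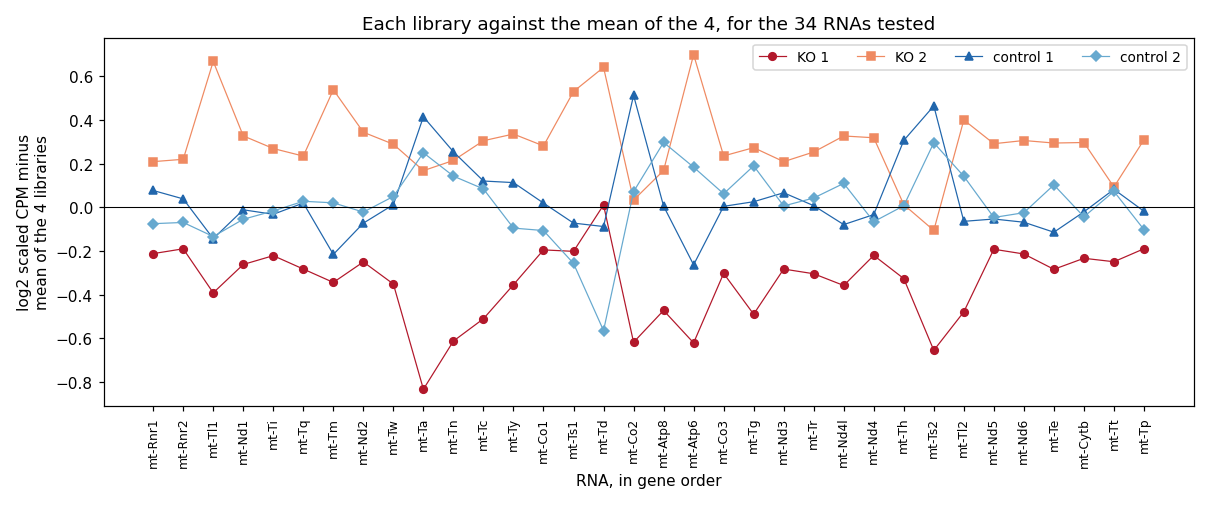
Scaled log2 CPM of each of the 34 members tested minus its mean over the 4 libraries, in gene order, with 1 line per library. The line of knockout (KO) replicate 2 is the highest for 28 members and that of knockout replicate 1 the lowest for 32, with the control libraries mostly between them.

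No member passed the test between groups. Across all 16924 genes tested with edgeR's quasi-likelihood test, 1 gene was lower in knockout islets and 0 were higher at an adjusted p under 0.05, which is 0.00591% and 0.00% of the genes tested. The lower gene was Tspan7. Of the members, 34 of 37 passed the filter on low counts, with mt-Tf, mt-Tv and mt-Tk left out, and 0 were called. The count of members called was also 0 by DESeq2 and by limma-voom. At an unadjusted p under 0.05 there was 1 of 34, mt-Ts2, against 3.51% of all genes tested, and DESeq2 had 2 and limma-voom 1. That count was higher without knockout replicate 1, without knockout replicate 2 and without control replicate 1. The share of all genes under that value is not given for those fits, DESeq2 or limma-voom, so their counts lack a background.

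The fold changes of the abundant RNAs were small against their intervals. Log2 fold changes are knockout over control. The 7 abundant mRNAs ran from 0.09 to 0.12, and the widest bounds of their 95% confidence intervals were -0.36 and 0.58. mt-Co1 averaged 9065 ± 2099 scaled CPM in knockout and 8429 ± 520 in control libraries (SD, n = 2 each), a log2 fold change of 0.10 ± 0.19 (SE, 95% CI -0.32 to 0.53). mt-Nd5 averaged 10313 ± 2422 in knockout and 9490 ± 33.0 in control libraries, a log2 fold change of 0.12 ± 0.19 (95% CI -0.31 to 0.54). mt-Nd6, from the other strand, stood at 0.12 ± 0.19. For the rRNAs, the log2 fold change was 0.04 for mt-Rnr2 (95% CI -0.35 to 0.43) and 0.01 for mt-Rnr1 (-0.38 to 0.40). All 7 of the abundant mRNAs turned negative without knockout replicate 2, mt-Co1 to -0.15 and mt-Nd5 to -0.14, and without knockout replicate 1 they stood higher, mt-Co1 at 0.33 and mt-Nd5 at 0.35.

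Over the 13 mRNAs the median log2 fold change was 0.10, with 8 positive and 5 negative values, and over all genes tested it was 0.003. Without knockout replicate 2 the median of the mRNAs was -0.23 and without knockout replicate 1 it was 0.33. The negative values were those of mt-Co2, mt-Atp8, mt-Co3, mt-Nd3 and mt-Nd4l, all from the low group. Their intervals were wider for the lowest counts, from -1.36 to 0.21 for mt-Co2 (log2 fold change -0.58) and from -1.39 to 0.79 for mt-Atp8 (-0.30). That of mt-Atp6 ran from -0.86 to 1.20 around 0.17. mt-Nd3 and mt-Nd4l stood at -0.06 and -0.001.

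The groups did not overlap in 4 of the 34 members, 3 with knockout below control and 1 with knockout above, against 15.0% and 15.3% of all genes tested. mt-Co2 was the only mRNA of these, with 2.70 and 4.24 scaled CPM in knockout and 5.92 and 4.36 in control libraries, and 50 counts or fewer in each. Its log2 fold change was -0.27 without knockout replicate 1, -0.92 without knockout replicate 2 and -0.35 without control replicate 1. The smallest p belonged to mt-Ts2, which reads the serine codons AGC and AGU. It had 109 and 125 counts in knockout and 208 and 206 in control libraries, or 13.9 ± 3.71 against 23.2 ± 1.92 scaled CPM (SD, n = 2 each). Its log2 fold change was -0.74 ± 0.22 (95% CI -1.25 to -0.24), and its p adjusted by Benjamini-Hochberg was 0.9997 in edgeR. With 1 library left out it lay between -1.04 and -0.48.

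mt-Ta stood at -0.59 ± 0.31 (95% CI -1.35 to 0.17), with 21.7 and 43.5 scaled CPM in knockout and 51.6 and 46.0 in control libraries. Without knockout replicate 1 its log2 fold change was -0.16, and without knockout replicate 2 it was -1.17. Its neighbour mt-Tn stood at -0.34 ± 0.26, and at 0.02 without knockout replicate 1. mt-Td (aspartate) was the member whose knockout libraries both lay higher, with 61 and 74 counts against 50 and 40 in control libraries and a log2 fold change of 0.66 ± 0.32 (95% CI -0.06 to 1.38). It stood at 0.32 without knockout replicate 2 and 0.43 without control replicate 2. mt-Tl1 stood at 0.37 ± 0.34, and at -0.25 without knockout replicate 2. Over the 19 tRNAs tested, 8 log2 fold changes were positive and 11 negative, with a median of -0.03. In the reported edgeR fit, with the low-count filter and no block, every member named in these comparisons had an adjusted p of at least 0.9997. With the replicate numbers as a block in edgeR, the adjusted p was 0.82 for mt-Ts2. With those numbers crossed between groups it was 0.695 for mt-Ts2 and 0.717 for mt-Ta. Without the filter it was 0.124 for mt-Ts2 and 0.199 for mt-Ta.

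**Figure D5:**
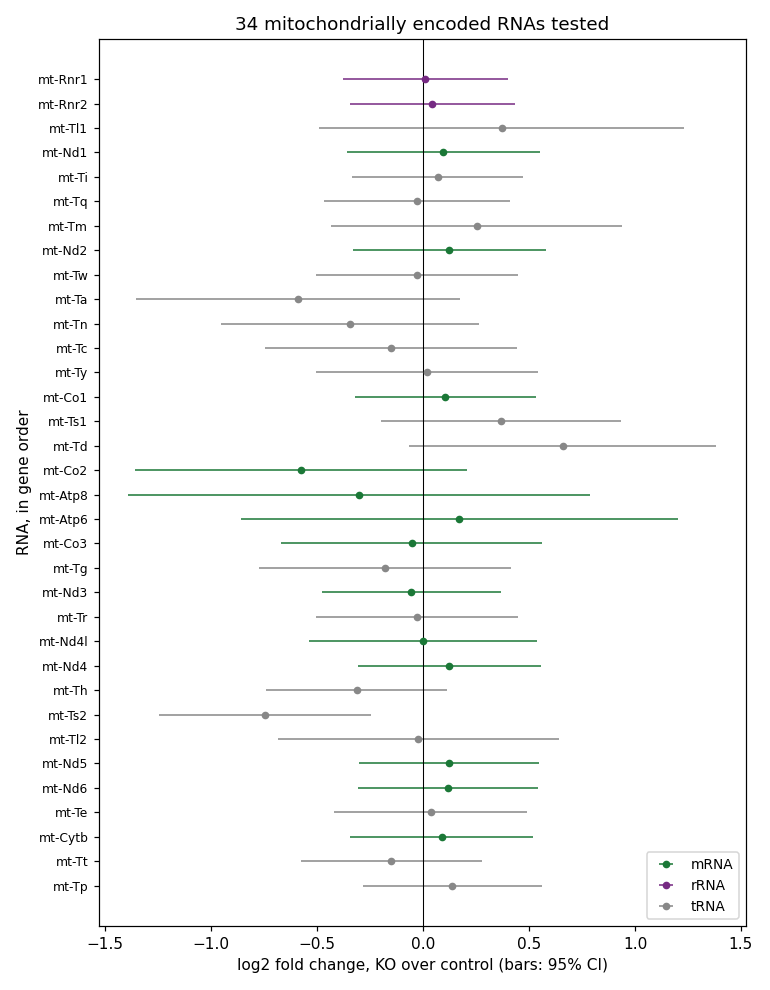
Log2 fold change of knockout (KO) over control for the 34 members tested, in gene order, with 95% confidence intervals as bars and colours for mRNAs, rRNAs and tRNAs. The interval of mt-Ts2, from -1.25 to -0.24, is the only one that does not reach 0, and the 7 abundant mRNAs lie between 0.09 and 0.12.

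Nuclear genes that copy, transcribe, process and translate mitochondrial DNA were examined beside the members. Of 150 symbols listed, 149 were matched and 147 tested, and edgeR called 0 of them higher and 0 lower. Those at an unadjusted p under 0.05 also numbered 0 in each direction, where 3.51% of all genes tested lay under that value and 0.00591% were called, and both DESeq2 and limma-voom called 0. Their log2 fold changes ran from -0.48 to 0.48 with a median of -0.01, 71 positive and 76 negative. Tfam, which packages mitochondrial DNA and starts its transcription, had 38.4 and 40.8 scaled CPM in knockout and 39.8 and 37.4 in control libraries (log2 fold change 0.04 ± 0.14). Twnk, the replicative helicase, stood at 0.01 ± 0.25. Of the other replication genes with the smallest p, Polg2, the accessory subunit of the mitochondrial DNA polymerase, stood at 0.48 ± 0.39, the single-stranded DNA-binding protein gene Ssbp1 at 0.11 ± 0.18 and the polymerase gene Polg at 0.07 ± 0.17.

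The smallest p of the list was that of Polrmt, the mitochondrial RNA polymerase. It had 9.24 and 7.69 scaled CPM in knockout and 10.8 and 12.4 in control libraries, a log2 fold change of -0.45 ± 0.22 (95% CI -0.96 to 0.06). The termination factor genes Mterf1a and Mterf3 stood at 0.32 ± 0.31 and 0.11 ± 0.14. Among the genes of RNA processing and stability, Fastkd1 stood at -0.44 ± 0.23, Trmt10c, a subunit of the nuclease that cuts tRNA 5′ ends, at 0.26 ± 0.16 and Mtpap, the mitochondrial poly(A) polymerase, at 0.22 ± 0.14. Lrpprc, which stabilises mitochondrial mRNAs, had 105 and 113 scaled CPM in knockout and 122 and 111 in control libraries (-0.10 ± 0.14).

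Among the 107 translation genes, 58 had negative and 49 positive values. The ribosomal protein gene Mrps30 stood at 0.32 ± 0.17, the ribosomal protein gene Mrpl12 at -0.39 ± 0.23 and the elongation factor gene Tsfm at -0.48 ± 0.27. The 5 regulators of mitochondrial biogenesis did not pass either, with Nrf1 at 0.14 ± 0.15, Esrra at -0.13 ± 0.24 and Ppargc1b at -0.22 ± 0.45. Ppargc1a, a coactivator of mitochondrial gene programmes that is named here after its values were seen, varied most between control libraries. It had 66.5 and 71.2 scaled CPM in knockout and 118 and 18.7 in control libraries, a log2 fold change of 0.01 ± 1.14. With control replicate 1 left out, edgeR called it higher (log2 fold change 1.88, adjusted p = 0.00445), and control replicate 2 was then the only control library.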

How the data were processed

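Counts were deposited by the authors as 1 table of raw counts per Ensembl gene and library. HISAT2, featureCounts and the build GRCm39 are named in the submitters' processing notes, without versions. Names, gene order, lengths and transcript sequences came from GENCODE M21 (GRCm38), which matched 52403 of 52636 identifiers; because builds differ, no coordinates are given. No genome was at hand, so copies were searched among annotated transcripts, a choice made after seeing the data. Genes were kept by filterByExpr (minimum count 10), scaled with TMM (trimmed mean of M-values) and tested in edgeR 4.0.16 (R 4.3.3) with the robust quasi-likelihood test, two-sided, Benjamini-Hochberg adjusted; standard errors and intervals come from that fit. limma 3.58.1 and DESeq2 1.42.0 were alternatives, with 3 other scalings, no filter, a replicate block and each library left out. The pipeline was tested on simulated data. Every pair of libraries differed by more than sampling noise, with a chi-square of at least 7.08 times its degrees of freedom. The 13 mRNAs and 2 rRNAs were always named; tRNAs are named by the filter, by extreme counts or as examples, and nuclear genes by smallest p. Members and lists were chosen with earlier results of these data known.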

Additional observations from a re-analysis of the deposited data

How the results depend on the processing

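Members called stayed at 0 in each direction under all 12 alternatives, and the nuclear list at 0 except for 1 gene, Ppargc1a, higher without control replicate 1 (range 0 to 1 with 1 library left out). Over all genes, DESeq2 called 4 lower, no low-count filter 15 higher and 47 lower, and the crossed pairing, an alternative added after seeing the data, 1 higher; with 1 library left out the counts ran from 0 to 33 higher and 1 to 15 lower, the extremes being without control replicate 1. The replicate block called 1 higher and 5 lower over all genes and 0 members. Same-numbered libraries correlated at -0.30 over genes in their deviations from the group means. Each group gives a single such difference, so this value cannot decide whether the numbers pair libraries. Where 1 library is left in a group, it is assumed to vary like the other group. Members at an unadjusted p under 0.05 numbered 1 in the reported fit and 6 without the filter. They numbered 4 with the crossed pairing and 2 with the replicate block or DESeq2, and the count also moved with 1 library left out. The share of all genes under that value is given for the reported fit alone (3.51%), so the other counts lack a background. The cause of these moves was not tested.

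With 1 library left out, the share of counts from the members differed by -0.419 to 0.928 points and the rRNA share of member counts by -0.848 to -0.045, and the median of the mRNAs ran from -0.23 to 0.33. Log2 fold changes that turned sign ran from -0.23 to 0.36 for mt-Nd1, -0.20 to 0.39 for mt-Nd2, -0.15 to 0.33 for mt-Co1, -0.63 to 0.00924 for mt-Atp8, -0.60 to 0.72 for mt-Atp6 and -0.34 to 0.20 for mt-Co3. They ran from -0.32 to 0.18 for mt-Nd3, -0.38 to 0.31 for mt-Nd4l, -0.17 to 0.37 for mt-Nd4, -0.14 to 0.35 for mt-Nd5, -0.17 to 0.36 for mt-Nd6 and -0.20 to 0.33 for mt-Cytb. For the other RNAs they ran from -0.22 to 0.21 for mt-Rnr1, -0.18 to 0.24 for mt-Rnr2, -0.28 to 0.30 for mt-Te, -0.81 to 0.0182 for mt-Tn, -0.25 to 0.81 for mt-Tl1 and -0.0402 to 0.70 for mt-Ts1. Nuclear genes ran from -0.73 to 0.64 for Ppargc1b, -0.32 to 0.10 for Esrra, -0.0426 to 0.19 for Polg, -0.11 to 0.94 for Polg2, -0.24 to 0.24 for Twnk, -0.0909 to 0.34 for Ssbp1, -0.00627 to 0.0849 for Tfam and -0.78 to 1.88 for Ppargc1a. Without a turn of sign, but by over 1.5 times, values ran from -0.92 to -0.27 for mt-Co2, 0.32 to 0.95 for mt-Td, -0.77 to -0.18 for Fastkd1, 0.10 to 0.40 for Trmt10c, 0.18 to 0.48 for Mrps30, -0.69 to -0.15 for Mrpl12, -0.82 to -0.23 for Tsfm, 0.17 to 0.50 for Mterf1a, 0.0227 to 0.20 for Mterf3 and -0.16 to -0.03 for Lrpprc. The same held for Polrmt at -0.591 to -0.329, Nrf1 at 0.102 to 0.178 and mt-Th at -0.491 to -0.148. It also held for mt-Ta at -1.17 to -0.163 and mt-Ts2 at -1.04 to -0.485. With all 4 libraries, 9 of 344 values turned sign, all of them within 0.03 of 0. They were mt-Nd4l without the filter (0.0109), Ppargc1a by DESeq2 (-0.000571), mt-Rnr1 with library totals (-0.00363), limma-voom (-0.000152), the replicate block (-0.00249) and the crossed pairing (-0.00248), and Twnk with library totals (-0.00427), limma-voom (-0.0202) and the crossed pairing (-0.00112).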
